A study of Phanerodontia chrysosporium with 8 samples.

Results

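The set described here holds gene models of Phanerodontia chrysosporium that were far higher in fruiting tissue than in mycelium from the first fruiting body initials on, and that kept their level into the spore-releasing stage. Members were chosen on the deposited matrix of log2 RPKM (reads per length of the model and per size of the library, on a log2 scale). With V the mean of the vegetative mycelium columns, Y the mean of the young fruiting body columns and F the median of the fruiting body columns, a member had Y at least 3 above V (8-fold), F within 1 of Y (2-fold), Y of at least 2, a highest mycelium value of at least 0 (1 RPKM) and a model longer than 537 bp. Of 12746 models in the matrix 213 met these conditions, and 13602 models were listed in the count files. Every library of every stage entered this choice, so the size of the induction and its persistence are descriptions of how the members were picked and carry no test.

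Strain RP-78 was used throughout, with 3 stages and 8 libraries of polyadenylated RNA. Vegetative mycelium (n = 3) was the hyphal mat, young fruiting bodies (n = 2) were compact initials set off from the mycelium around them, and fruiting bodies (n = 3) were taken when spores had begun to drop. All cultures were raised on cellophane-covered agar for 7 days at 37 °C in darkness and brought to fruit in a moist chamber at 25 °C under dim light. Temperature, light, moisture and age cannot be told apart from stage if mycelium was taken before this move. The submitters call the libraries of a stage biological replicates, and no more is given on separate cultures. Flowcell differed within a stage only for fruiting bodies, where replicates 1 and 3 were run apart from the other 6 libraries. Values of a stage are listed below in the order of its replicate numbers. Unique gene reads ranged from 16144543 to 35837246 per library.

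Phanerodontia chrysosporium is a white-rot fungus best known for degrading lignin with secreted peroxidases. Its fruiting body is a flat crust on which spores form on club-shaped cells called basidia. Making a fruiting body requires hyphae to stick together, rebuild their walls and take on separate fates, and in mushroom-forming fungi this comes with broad changes in gene expression. The files identify models by JGI protein number and pair them with no product, so members are given by number, and no role, family or sequence can be attached to them here.

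The members started low and ended high. In mycelium the median member stood at 4.64, 4.16 and 4.43 RPKM. In young fruiting bodies the median was 108 and 78.2 RPKM. In fruiting bodies it was 129.5, 97.5 and 43.9 RPKM. All models of the matrix had medians of 20.0 to 20.5 RPKM in mycelium, 21.0 and 21.6 in young fruiting bodies and 21.4 to 22.1 in fruiting bodies, so a typical member lay below the typical model in mycelium and above it in every fruiting library. Because bulk tissue was sequenced, more cells that use a gene and more RNA per cell cannot be told apart.

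**Figure D1:**
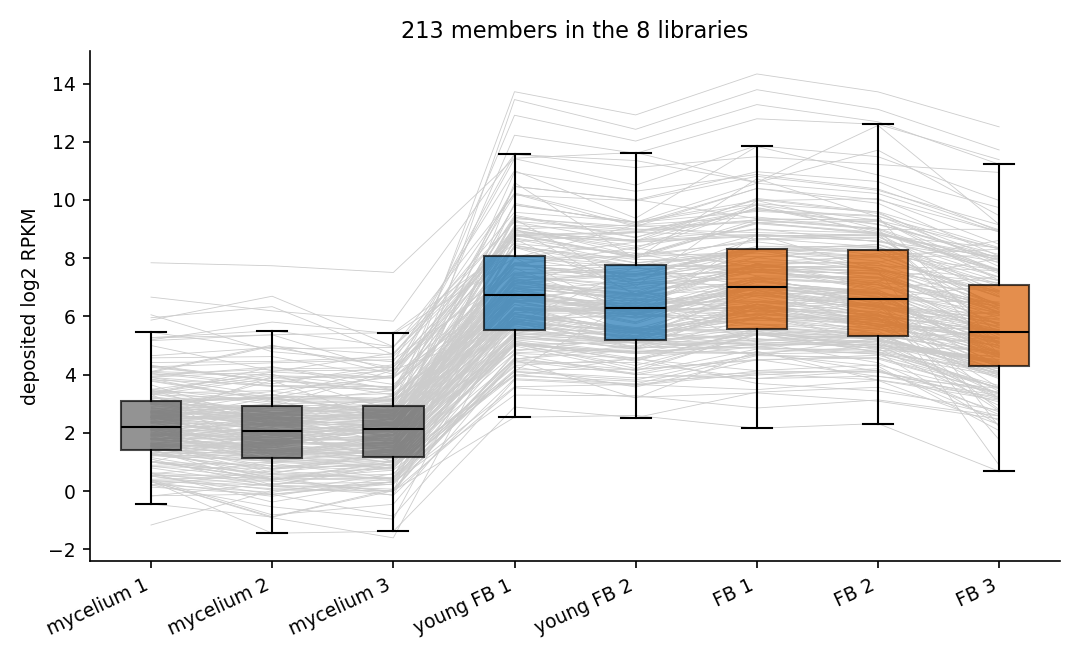
Deposited log2 RPKM of the 213 members in each library, by stage (FB on the axes stands for fruiting body). Grey lines join the values of a member, boxes give the quartiles with the median as a bar, and whiskers reach to values within 1.5 times the box height. Medians are 78.2 and 108 RPKM in young fruiting bodies, against 4.16 to 4.64 RPKM in mycelium, and fruiting body replicate 3 lies below the other fruiting libraries at 43.9 RPKM.

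The size of the induction varied widely among members. The difference Y − V had a median of 4.18, quartiles of 3.50 and 5.12, and a maximum of 10.96 on the log2 scale. Between 8 and 16-fold lay 98 members, between 16 and 64-fold 84, and at 64-fold and over 31. In these 3 classes the median V was 2.21, 2.10 and 1.96 log2 RPKM and the median Y 5.65, 6.98 and 9.10 log2 RPKM, where Y enters the classes and nothing is read from its order. Across members, which are not independent replicates, V and Y − V had a Spearman correlation of -0.0839 (n = 213), and V enters both measures. A mean of at least 10 RPKM in young fruiting bodies was reached by 210 members, at least 100 RPKM by 99 and at least 1000 RPKM by 13. In mycelium 37 members had a mean of at least 10 RPKM and 1 of at least 100, all means being taken on the log2 scale.

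**Figure D2:**
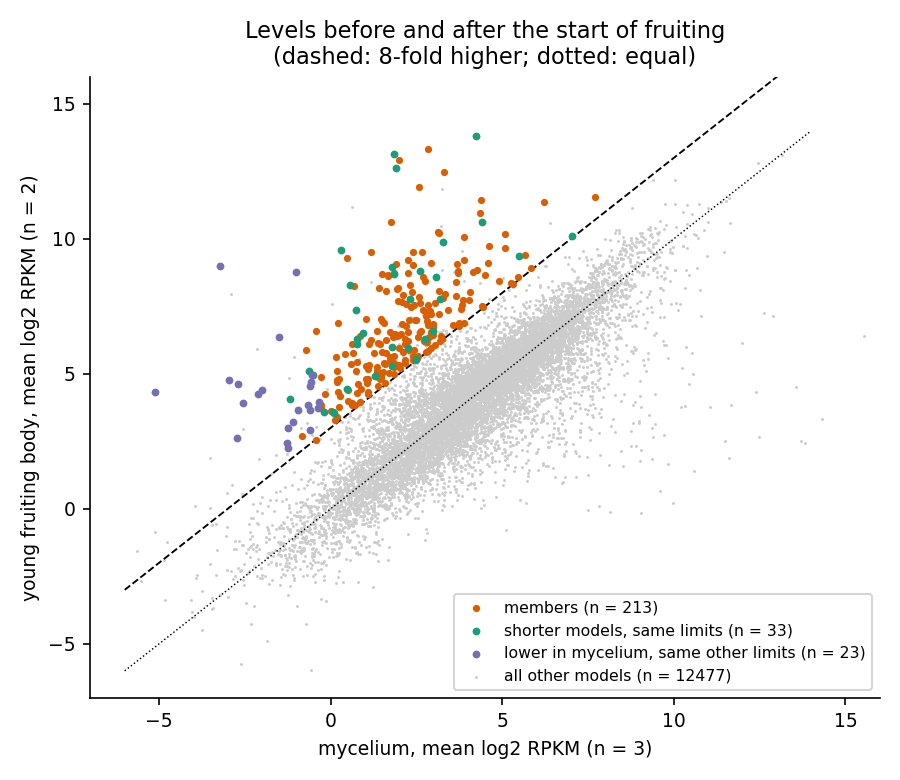
Mean log2 RPKM in young fruiting bodies (vertical, n = 2 libraries) against mycelium (horizontal, n = 3 libraries) for all 12746 models. The 213 members sit on or above the dashed line of an 8-fold difference, which the choice requires, and have a colour of their own, as do the 33 shorter models, the 23 below the mycelium limit and the 12477 models outside these sets.

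The strongest members were scarce in mycelium and abundant in fruiting tissue. Model 6405 (1713 bp) had the highest Y of the members. In mycelium it had 10.2, 6.41 and 5.47 RPKM, in young fruiting bodies 13483 and 7759 RPKM, and in fruiting bodies 20582, 13433 and 5840 RPKM. The lowest fruiting library thus held it at a far higher level than the highest mycelium library. Its Y was 1441 times its V. In each of the 5 fruiting libraries it took more unique reads than any other member, 15.7 to 22.2% of all member reads.

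Model 3019536 (1028 bp) showed the largest difference, with Y 1986 times V. It stood at 10.1, 2.34 and 2.62 RPKM in mycelium, at 11182 and 5507 RPKM in young fruiting bodies, and at 14144, 8862 and 3367 RPKM in the fruiting body libraries. Mycelium replicate 1 lay above the other mycelium libraries, yet far below every fruiting library. Its unique reads numbered 63777 to 315022 in the fruiting libraries, against 169, 80 and 56 in the mycelium libraries.

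A further pair shared this profile. Model 1264955 (1372 bp) averaged 10.2 ± 3.05 RPKM (SD, n = 3) in mycelium, 5931 ± 2501 (SD, n = 2) in young fruiting bodies and 6302 ± 3772 (SD, n = 3) in fruiting bodies. Model 2979377 (1475 bp) averaged 5.95 ± 0.239 RPKM (SD, n = 3) in mycelium, 3946 ± 1186 (SD, n = 2) in young fruiting bodies and 5318 ± 2331 (SD, n = 3) in fruiting bodies. Their Y was 572 and 648 times their V, and in both models young fruiting body replicate 1 lay above replicate 2 and fruiting body replicate 3 was the lowest of its stage.

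Abundance and induction did not always coincide. Model 2978641 (650 bp) was among the 6 most abundant members although its Y was only 14.3 times its V, because it was already at 229.6, 214 and 182 RPKM in mycelium, the only member at 100 RPKM or more there. It had 2766 and 3169 RPKM in young fruiting bodies and 1556, 6047 and 571 RPKM in the fruiting body libraries. Unlike the 4 models above it was highest in fruiting body replicate 2. As in those 4 models, its fruiting body libraries spread over a wider range than its young fruiting body libraries. Model 1682101 (804 bp) was also highest in replicate 2, with 17.2, 32.4 and 16.2 RPKM in mycelium, 3018 and 2619 RPKM in young fruiting bodies and 1550, 3354 and 704 RPKM in the fruiting body libraries.

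Outside the 6 most abundant, the largest differences belonged to models 2902282 and 3037926. Model 2902282 (822 bp) had 4.42, 2.67 and 3.22 RPKM in mycelium, 1977 and 1260 RPKM in young fruiting bodies and 1881, 1329 and 502 RPKM in the fruiting body libraries. Its libraries lay within 2-fold of each other in mycelium and in young fruiting bodies. Model 3037926 (706 bp) was uneven, with 2.03, 1.33 and 0.979 RPKM in mycelium, 1548 and 250.1 RPKM in young fruiting body replicates 1 and 2 and 1700, 685 and 31.3 RPKM in the fruiting body libraries. It had the widest gap of any member between the young fruiting body libraries.

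**Figure D3:**
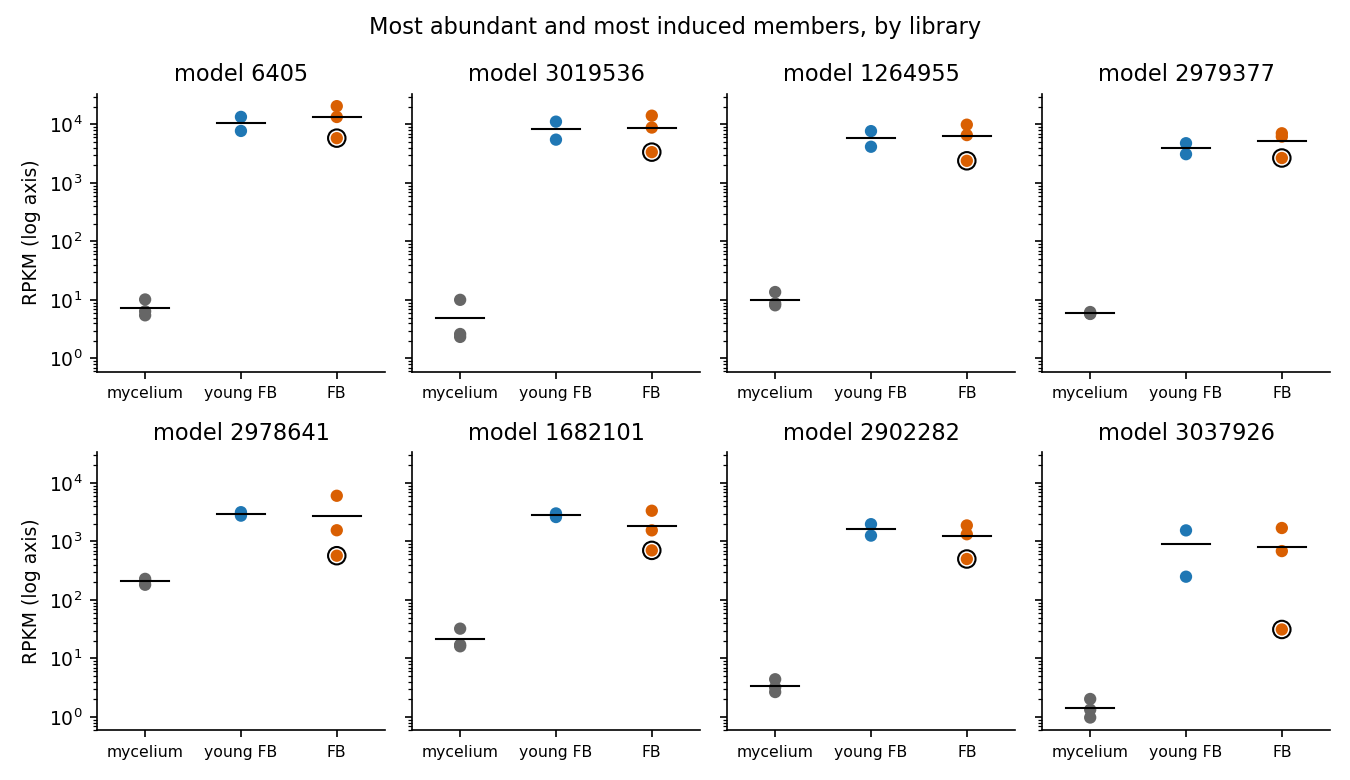
RPKM on a log axis of the 6 most abundant and 6 most induced members, 8 models in all, by stage. Points are libraries, bars are stage means, and the ringed point is fruiting body replicate 3. In every panel the stages of fruiting lie above mycelium, and in all 8 models the ringed point is the lowest of its stage, down to 31.3 RPKM in model 3037926.

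Together the members took a sizeable part of the sequenced messenger RNA. They held 0.243, 0.228 and 0.224% of unique gene reads in mycelium, 12.8 and 8.85% in young fruiting bodies, and 14.8, 12.2 and 5.80% in the fruiting body libraries. The stage means were 0.232 ± 0.0100% (SD, n = 3) in mycelium, 10.8 ± 2.80% (SD, n = 2) in young fruiting bodies and 10.9 ± 4.61% (SD, n = 3) in fruiting bodies. No fruiting library came near the mycelium range, and young fruiting bodies fell within the range of the fruiting bodies. The reads were concentrated in few members. The 10 members with most reads in each library held 51.8 to 60.2% of member reads in the fruiting libraries and 28.7 to 36.2% in mycelium. The 6 most abundant members held 39.5 to 47.9% in the fruiting libraries and 7.58 to 8.62% in mycelium. They were picked by Y, which favours this order. Without these 6, the other members still held 6.21 ± 1.21% (SD, n = 2) of unique reads in young fruiting bodies and 5.86 ± 2.26% (SD, n = 3) in fruiting bodies, against 0.213 ± 0.00805% (SD, n = 3) in mycelium.

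**Figure D4:**
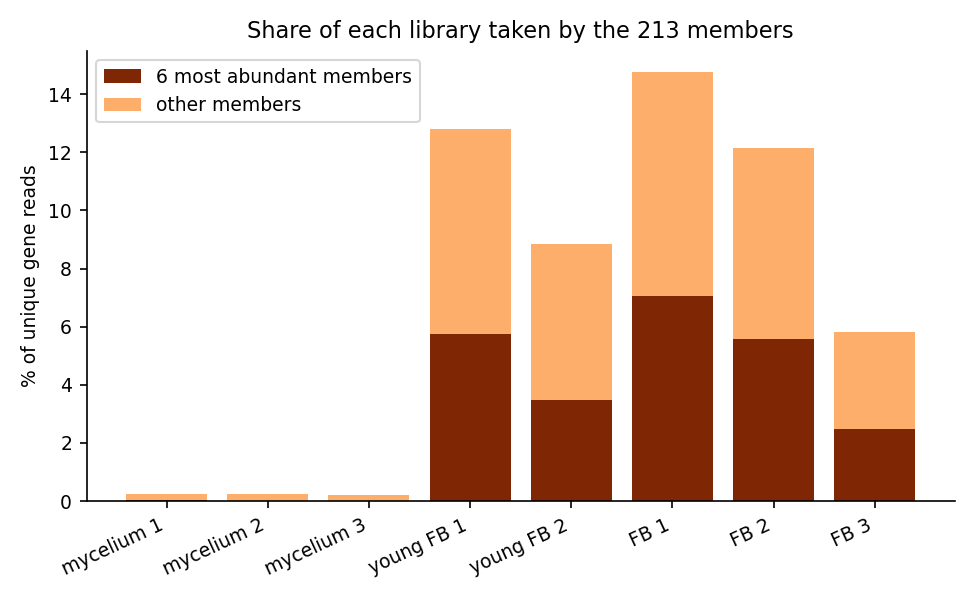
Percent of each library's unique gene reads on the 213 members, split into the 6 most abundant (dark) and the others (light). Bars start at 0 and are single libraries. Fruiting bars lie between 5.80% (fruiting body replicate 3) and 14.8% (replicate 1), and mycelium bars at 0.224 to 0.243%.

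Genome-wide, the edgeR quasi-likelihood test on unique reads called 211 of the 212 members it could test up in young fruiting bodies relative to mycelium, where 15.0% of all 12510 tested models were called higher. For fruiting bodies against mycelium it called 210 members higher, where 18.4% of all models were called. These contrasts chose the members, so nothing is read from the counts. The median fitted log2 fold change of members was 4.16 for young fruiting bodies and 4.05 for fruiting bodies, both against the same mycelium libraries, while the medians over all tested models were -0.0046 and 0.05. Between fruiting bodies and young fruiting bodies no member was called, nor was any other model (0.00% higher and 0.00% lower). In that contrast 8 members had an unadjusted p below 0.05 (edgeR), as did 987 of all models, and DESeq2, limma-voom and limma-trend called 0 members, with 242, 1 and 0 of all models.

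The members that were not called had uneven libraries. Model 5963 (984 bp) was called in neither contrast with mycelium. It had 9.95, 19.3 and 12.7 RPKM in mycelium, 127 and 95.8 RPKM in young fruiting bodies and 155, 101 and 1.85 RPKM in the fruiting body libraries. Fruiting body replicate 3 was below every mycelium library for this model, while the other fruiting libraries were above them all. Model 2907721 (1524 bp), named because it was not called in fruiting bodies against mycelium, had 102, 61.4 and 6.96 RPKM in the fruiting body libraries, against 3.70, 7.49 and 17.8 RPKM in mycelium. Its spread was large in mycelium as well as in fruiting bodies. Model 2982444 was not tested, because it had at most 3 unique reads in any library.

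F is a median of all fruiting body libraries, so the choice of members limited the differences among these libraries in part. It let at most 1 of them lie more than 2-fold below Y, without setting which. Fruiting body replicate 3 was the lowest of its stage in 203 of 213 members, where it was the lowest in 41.4% of all models. It lay below both young fruiting body libraries in 190 members (38.0% of all models), where members were chosen for a high Y. Relative to the mean of replicates 1 and 2, it differed by a median of -1.24 log2 units over members (quartiles -1.73 and -0.84), against 0.03 over all 12746 models. It was at least 2-fold lower than that mean in 138 members (9.73% of all models). Only 6 members were at or above it. A single library against a pair gives no test, and replicate 3 also had the fewest unique reads of the series, as well as a flowcell it shared with replicate 1 alone.

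The reverse held for models with the opposite course. Applying the mirrored limits (V at least 3 above Y, F within 1 of Y, V of at least 2, longer than 537 bp) gave 147 models. In these fruiting body replicate 3 lay above the mean of replicates 1 and 2 by a median of 2.02 log2 units, higher in 130 of 147. They held 3.79% of unique reads in fruiting body replicate 3, against 0.227 and 0.307% in replicates 1 and 2, and 6.20 to 9.51% in mycelium. Whether mycelial RNA in that library has a part in the lower level of the members was not tested.

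**Figure D5:**
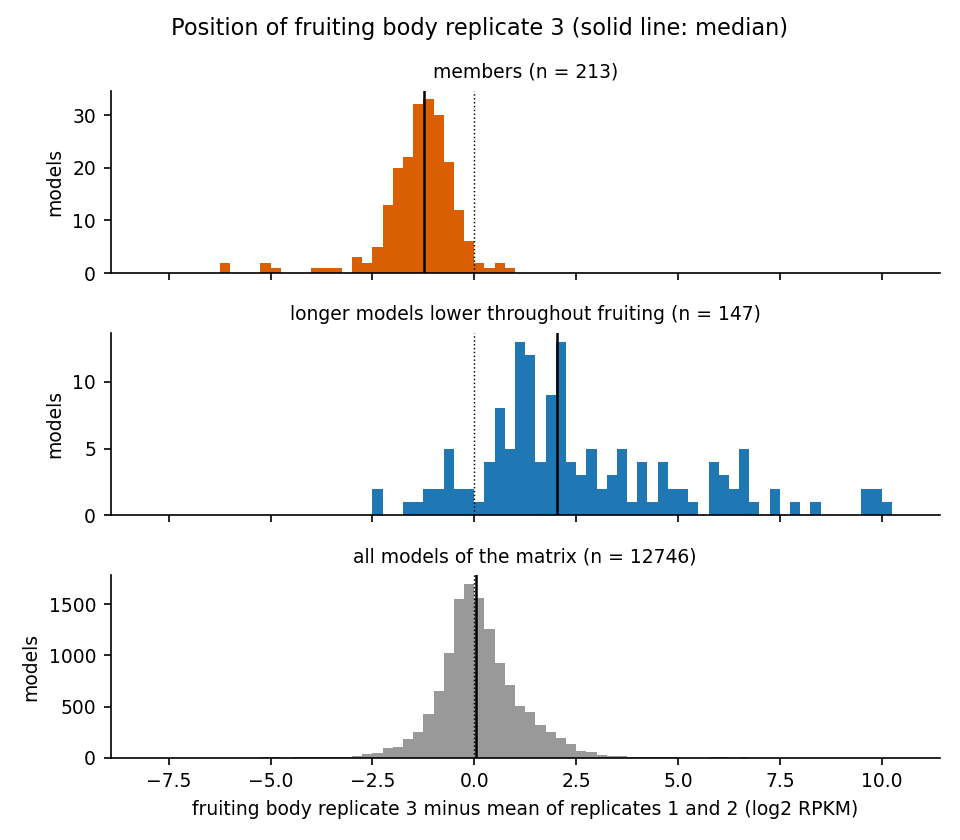
Histograms of log2 RPKM in fruiting body replicate 3 minus the mean of replicates 1 and 2, for the 213 members, for 147 longer models with the opposite course and for all 12746 models. The solid line is the median, at -1.24, 2.02 and 0.03, and the dotted line marks 0. Members lie almost wholly left of 0, with a few separate values beyond -4.

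On the log2 scale replicate 3 lay nearer to young fruiting bodies than to mycelium in the median member. The distance from V, as a share of the log2 difference Y − V, had a median of 108% in fruiting body replicate 1, 103% in replicate 2 and 77.8% in replicate 3. Every fruiting body library was above every mycelium library in 210 members, where this held for 25.7% of all models. Every young fruiting body library was above every mycelium library in all 213 members, where it held for 31.7% of all models. The limits on Y − V and F − Y favour this order, so nothing is read from these counts. In log2 units, members induced more were further below the mean of replicates 1 and 2 in replicate 3. The median deviations were -1.02, -1.30 and -1.51 in the classes of 8 to 16, 16 to 64, and 64-fold and over. As a share of Y − V, the distance of replicate 3 from V did not fall with induction. Its medians in these classes were 75.8, 77.1 and 84.0%, where Y − V sets the classes and enters the share. The Spearman correlation between Y − V and the deviation of replicate 3 was -0.276 across members (n = 213), as a description.

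A few members dropped far more in replicate 3 than the rest. In 5 members it was over 16-fold below the mean of replicates 1 and 2, and in 8 over 8-fold. Model 3041735 (1373 bp) had 2.96, 1.79 and 1.65 RPKM in mycelium, 258 and 64.9 RPKM in young fruiting bodies, and 453, 192 and 4.61 RPKM in the fruiting body libraries. Replicate 3 thus retained little of its induction. Model 3032430 (840 bp) had 8.90, 3.96 and 4.51 RPKM in mycelium, 172 and 205 RPKM in young fruiting bodies and 129.5, 97.5 and 3.39 RPKM in the fruiting body libraries, so that fruiting body replicate 3 lay below all mycelium libraries. The others of the 5 are models 5963 and 3037926, given above, and 3039441 (934 bp), named after its values were seen.

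Model 3039441 resembled model 3037926. It averaged 3.96 ± 0.966 RPKM (SD, n = 3) in mycelium, and had 651 and 130.3 RPKM in young fruiting body replicates 1 and 2 and 1012, 517 and 25.8 RPKM in the fruiting body libraries. In 4 of the 5 members young fruiting body replicate 1 was above replicate 2, an order found in 169 of all 213 members. In all 5 fruiting body replicate 1 was above replicate 2, as in 166 of all 213. These orders thus do not set the 5 apart from the other members.

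At the other extreme, 3 members stood out for a high replicate 3. Model 2919993 (1257 bp) had 13.9, 9.18 and 15.8 RPKM in mycelium, 526 and 106 RPKM in young fruiting bodies and 221, 233 and 391 RPKM in the fruiting body libraries. Model 2982441 (543 bp) had 5.79, 7.23 and 7.51 RPKM in mycelium, 141 and 172 RPKM in young fruiting bodies and 186, 148 and 256 RPKM in the fruiting body libraries. For model 2898789 (570 bp) the values were 7.33, 4.74 and 4.98 RPKM in mycelium, 53.3 and 38.3 RPKM in the young fruiting bodies, and 25.6, 38.0 and 44.2 RPKM in the fruiting bodies. In none of the 3 did a fruiting library overlap with mycelium, an order that the limits favour. It held for fruiting bodies in 210 of 213 members (25.7% of all models). For young fruiting bodies it held in all 213 (31.7% of all models).

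Outside replicate 3, the share of models with libraries of a stage within 2-fold was similar in members and in all models. Ranges were wider in members. Levels, which differ between members and all models, were not matched in this comparison. The median range between young fruiting body libraries was 0.45 log2 units in members and 0.30 in all models. In mycelium it was 0.59 against 0.49, and between fruiting body replicates 1 and 2 it was 0.29 against 0.26. The young fruiting body libraries were within 2-fold of each other in 193 of 213 members (90.6%, against 93.0% of all models). Fruiting body replicates 1 and 2 were within 2-fold in 205 members (96.2%, against 93.5% of all models), and all mycelium libraries in 182 (85.4%, against 86.5% of all models). The limit on F − Y bears on fruiting body replicates 1 and 2, neither of which lay over 2-fold below Y in any member. All 3 fruiting body libraries were within 2-fold in 51 members (23.9%, against 65.2% of all models). The differences had a direction: young fruiting body replicate 1 was above replicate 2 in 169 members (52.0% of all models), by a median of 0.37 log2 units, and fruiting body replicate 1 was above replicate 2 in 166 (50.0% of all models), by a median of 0.25. In mycelium, replicate 1 was the highest of its stage in 112 members (42.7% of all models).

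A gap of 4-fold or more between the young fruiting body libraries occurred in 4 members. Model 2910601 (3123 bp) was among them and had the opposite sign to model 3037926, with 2.00, 1.34 and 1.29 RPKM in mycelium, 17.3 and 97.8 RPKM in young fruiting body replicates 1 and 2, and 34.3, 21.3 and 6.16 RPKM in the fruiting body libraries. Its Y of 5.36 log2 RPKM lay between 4.11 in young fruiting body replicate 1 and 6.61 in replicate 2.

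Between young and spore-releasing fruiting bodies the members were held level by the rule, with F − Y from -0.95 to 0.91 log2 units and a median of 0.10. F was above Y in 132 members and below it in 81, and in 166 the difference was under 0.5. Taken library by library, fruiting body replicate 1 was within 2-fold of Y in 198 members and above that in the other 15, replicate 2 was within it in 211, and replicate 3 was within it in 110 and below it in 103. The members nearest to the limit were models 2910601 and 3032430 at -0.95 and -0.94. Models 3004843 and 2979629, at -1.01 and -1.02, were the nearest left out by this condition alone.

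Close to the other limits the values ran on without a break. Model 2905295 (1542 bp) had a Y 8.00 times its V, and models 2085590 and 2507, left out by that condition alone, had 7.97 and 7.94. Model 2982674 (3853 bp), with a Y 8.04 times its V, was also the member lowest in young fruiting bodies, at 5.80 and 6.05 RPKM, against 0.737, 0.539 and 1.01 RPKM in mycelium. Model 2087621 (1181 bp) was next, with 7.40 and 5.74 RPKM, against 1.27, 0.367 and 0.384 RPKM in mycelium, and 37.2% of its reads were not unique. No model was left out by the limit on Y alone. The shortest members, models 2982441 (543 bp) and 2970980 (546 bp), lay beside models 3004844 (537 bp) and 2905691 (534 bp), whose Y was 11.4 and 11.6 times their V.

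The lengths of members were close to those of other models over the limit. Their median was 1350 bp with quartiles of 934 and 1809 bp, and the 11405 models over 537 bp had a median of 1322 bp with quartiles of 932 and 1869 bp. Up to 1000 bp long were 63 members, and 40 exceeded 2000 bp. Length had Spearman correlations of -0.0747 with Y − V and -0.148 with Y across members (n = 213), as a description. The longest members were at modest levels. Model 3042730 (3879 bp) had the largest difference among the 4 longest, with 1.46, 1.28 and 2.01 RPKM in mycelium, 69.8 and 68.2 RPKM in young fruiting bodies and 89.4, 103 and 26.3 RPKM in the fruiting body libraries. Models 3020340 (4205 bp) and 2947450 (3606 bp) had a Y above their V by 3.20 and 3.46 on the log2 scale.

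Other models met all limits but a single one. With the limits on expression alone, 246 models qualified, of which 33 (13.4%) were no longer than 537 bp, while 10.5% of all models in the matrix were that short. Members had a median Y − V of 4.18 and a median Y of 6.48 log2 RPKM, against 5.44 and 6.60 in the 33 shorter models. The ranges overlapped widely, and the shorter models reached 11.31 in Y − V, against 10.96 in members. The deviation of fruiting body replicate 3 was nearly the same in both, with a median of -1.24 in members and -1.25 in the shorter models. Another 23 longer models met every limit except that their highest mycelium value was below 1 RPKM. They were much less abundant, with a median Y of 3.96 log2 RPKM, but their median Y − V was 5.25. The limit on mycelium that sets them apart bears on these values. Their median deviation in replicate 3 was -1.23.

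Reads were unique in most members. In 176 members every read was unique, and in 196 fewer than 1% of reads were not unique, as in 92.0% of all models of the matrix. Where else the reads that are not unique match is not given. In the other 17 members 1% or more of the reads were not unique, and in 2 of these most were not. Of the reads on models 2982444 (600 bp) and 2982432 (817 bp), 99.9% and 90.1% were not unique. Their RPKM, which rests on total reads, thus cannot be assigned to these models alone. Model 2982444 had 2.29, 4.01 and 2.26 RPKM in mycelium, 114 and 151 RPKM in young fruiting bodies and 205, 123 and 166 RPKM in the fruiting body libraries. Model 2982432 had 3.10, 2.80 and 5.69 RPKM in mycelium, 91.3 and 87.3 RPKM in young fruiting bodies and 91.5, 81.9 and 55.0 RPKM in the fruiting body libraries. In model 2982441, 8.40% of reads were not unique.

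The median member had 409 unique reads summed over the mycelium libraries, where members are lowest, and 4 members had fewer than 10 unique reads in some mycelium library. Membership itself varied with single libraries. Chosen anew without each library in turn, the set held 184 to 225 models, of which 174 to 209 were among the 213. Without fruiting body replicate 3 it held 219, of which 209 were shared.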

How the data were processed

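Polyadenylated RNA of 8 libraries was sequenced after a TruSeq RNA v2 preparation, which does not mark strand, per the labels' protocols. The deposited per-sample files give whole-number counts of unique and total gene reads, the model length and TPM, per the file headers (TPM was only examined, and an RPKM column there is 0 throughout). The deposited matrix holds log2 RPKM made by the authors. After subtracting a constant for each library, its values equalled log2(total reads / length) within 0.00596 for 99% of models of at least 100 reads. RPKM values printed are its antilogs, and stage means V and Y are means of log2 values. Per the submitters' processing notes limma 3.18.13, edgeR 3.4.2 and R 3.0.2 were among the tools, with no role stated. The aligner and genome release are not given in the sources used here.

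All stages were fitted together on unique counts with edgeR 4.0.16 in R 4.3.3 (filterByExpr, TMM, robust quasi-likelihood, Benjamini-Hochberg adjusted p below 0.05 as called). The fit was also run on counts simulated with the spread it had estimated and no outlying library. That run does not check the fit for data with such a library. Alternatives used DESeq2 1.42.0, limma 3.58.1, other factors, filters, covariates and left-out libraries. Since separate cultures are not documented, p-values reflect only spread between samples, which may be technical.

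Members and lists were chosen with earlier results of these data known. Named models are the 6 with highest Y, 6 with largest Y − V, 4 longest and those nearest each limit. Models extreme in fruiting body replicate 3, in the difference between young fruiting body libraries or in non-unique reads are also named, plus models 2907721 and 3039441. The product lists planned need product names, which the files do not hold.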

Additional observations from a re-analysis of the deposited data

Results flagged for a closer look

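In 2 members most reads are left out by the fits of unique counts. These reads entered the deposited RPKM that chose the members, so their levels are given as a description. For model 2982432, reads that were not unique came to 2.16, 1.72 and 4.11 CPM (scaled to all gene reads of the library) in mycelium, to 67.7 and 68.3 CPM in young fruiting bodies (mean 68.0) and to 63.0, 57.7 and 46.3 CPM in fruiting bodies, in the order of their replicates. For model 2982444 they came to 1.29, 2.19 and 1.39 CPM in mycelium, to 69.4 and 94.5 CPM in young fruiting bodies (mean 82.0) and to 114, 71.7 and 113 CPM in fruiting bodies. Where these reads come from was not tested.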

How the results depend on the processing

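The count of members called followed from how they were chosen: over 11 alternatives each, 208 to 212 were higher in young fruiting bodies and 206 to 211 in fruiting bodies than in mycelium, and 0 differed between the fruiting stages. With each library left out these were 201 to 212, 207 to 212 and 0. Over all models, calls against mycelium with each library left out were 1052 to 5141 for young fruiting bodies and 2448 to 6099 for fruiting bodies, and between the fruiting stages 0 to 81, each highest without fruiting body replicate 3. In fruiting body against mycelium the flowcell as a covariate gave 1244 calls, against 3977. In fruiting body against young fruiting body, where edgeR called 0, DESeq2 called 242, the shared flowcell alone 64, and the flowcell covariate, upper-quartile factors and limma-voom 1 each. The cause was not tested. The number of members was 420 with Y − V of at least 2 and 115 with at least 4, which follows from the limit, and 166 to 240 under the other 6 alternatives. With each library left out it was 184 to 225. Shares of reads left out in turn gave 0.226 to 0.236% in mycelium, 8.85 to 12.8% in young fruiting bodies and 8.98 to 13.5% in fruiting bodies, and the deviation of fruiting body replicate 3 was -1.32 to -1.16 log2 units. Leaving out the 2 members with mostly non-unique reads, chosen after seeing the data, changed the median range between the fruiting body libraries little. It was 1.43 log2 units, against 1.41 with all members. Replicate numbers were not taken to pair the samples. The correlations across models between deviations of same-numbered libraries had mixed signs. They were -0.28, 0.19 and -0.10 for fruiting body with mycelium (replicates 1, 2 and 3). For young fruiting body with mycelium they were 0.20 and 0.13, and for fruiting body with young fruiting body 0.14 and -0.09. Deviations of the libraries of a stage are tied to each other, so these signs cannot exclude pairing. With the replicate block 208 and 209 members were called against mycelium in young fruiting bodies and fruiting bodies and 0 between these, and 2218, 3492 and 0 of all models.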
